A study of Mus musculus with 6 samples.

Results

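A set of 7 genes that activate glucocorticoid hormone, sense it or respond to it was followed in stromal cells, the mesenchymal cells of connective tissue, of mouse skeletal muscle and lymph node. The 7 genes, Nr3c1, Hsd11b1, Fkbp5, Tsc22d3, Zbtb16, Sgk1 and Errfi1, were taken by symbol from 52997 symbols in the deposited count table, and all 7 were found and had enough counts to be tested. Messenger RNA was sequenced from 8-week-old C57BL/6 mice under resting conditions, with no transgene, deletion or treatment named in the labels. The muscle group came from hindlimb muscle and the lymph node group from inguinal, axillary, brachial and cervical nodes combined. Each group had 3 libraries of 1000 twice-sorted cells, described as biological replicates, and no sort marker is named in the sources used here. Libraries keep the numbers of the count table, 2, 3 and 4 in muscle and 1, 2 and 3 in lymph node. A pair of muscle titles carry the same number, so it is not known here if every muscle library came from its own animal, and p-values measure the spread between these libraries.

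Glucocorticoids are steroid hormones of the adrenal gland that damp inflammation and redirect metabolism. Inside cells the enzyme 11-beta-hydroxysteroid dehydrogenase type 1 (Hsd11b1) regenerates active corticosterone from its inert form, and the hormone then binds the glucocorticoid receptor (Nr3c1), which enters the nucleus and binds DNA at glucocorticoid response elements (GREs), pairs of short arms facing each other. Among the genes it switches on are Fkbp5, a co-chaperone that lowers the hormone affinity of the receptor, Tsc22d3, also called GILZ, which restrains inflammatory signalling, and the zinc finger repressor Zbtb16, also called PLZF. Sgk1 encodes a serum- and glucocorticoid-regulated kinase and Errfi1, also called MIG6, an inhibitor of the epidermal growth factor receptor. Sgk1 and Errfi1 are also known to respond to serum, growth factors and stress, without hormone.

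Promoter windows of 300 bases, from 250 bases before to 50 bases after an annotated start, were matched by symbol in RefSeq (GRCm38.p6). Those of 5 of the 7 genes are reported here, 13 windows in all, and none of Nr3c1 or Zbtb16. The Sgk1 and Tsc22d3 windows printed here carry letters the receptor is known to bind, and the Errfi1 window carries another response element. A full palindromic element, AGAACA and TGTTCT with 3 bases of any kind between them, was found in 1 of the 6 Sgk1 windows, at position -189 from 1 of its annotated starts, and in 3 of 32851 windows of all genes (0.00913%). The single arm TGTTCT, searched on both strands, stood in 1 of the 3 Tsc22d3 windows, in 3 of the 6 Sgk1 windows and in 19% of all windows. No window of Hsd11b1, Fkbp5 or Errfi1 held the full element, a relaxed form (GNACA and TGTNC, again 3 bases apart, in 0.475% of all windows) or the single arm, which says only that these letters are absent from these windows. The second Errfi1 window held the cyclic AMP response element TGACGTCA at position -51, which 1.79% of all windows hold. The full, relaxed and single-arm searches overlap at the Sgk1 element. In the sequences, capitals mark the GRE letters in Sgk1 and Tsc22d3 and the cyclic AMP element in Errfi1. The counts are summed per gene, so they do not tell which of the starts was in use.
Sgk1, chr10:21993640-21993939, plus strand: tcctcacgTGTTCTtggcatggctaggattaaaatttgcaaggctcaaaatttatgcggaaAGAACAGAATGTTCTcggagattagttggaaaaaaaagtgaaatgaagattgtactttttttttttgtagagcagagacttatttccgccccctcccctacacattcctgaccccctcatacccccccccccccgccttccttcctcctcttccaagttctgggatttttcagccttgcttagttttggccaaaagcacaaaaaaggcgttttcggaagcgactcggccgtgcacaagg
Tsc22d3, chrX:140600473-140600772, minus strand: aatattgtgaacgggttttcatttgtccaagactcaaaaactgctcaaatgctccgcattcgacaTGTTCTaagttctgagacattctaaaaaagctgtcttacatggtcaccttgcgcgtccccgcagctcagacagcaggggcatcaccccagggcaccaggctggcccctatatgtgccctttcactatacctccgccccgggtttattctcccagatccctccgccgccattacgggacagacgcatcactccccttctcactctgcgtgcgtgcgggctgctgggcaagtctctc
Errfi1, chr4:150854820-150855119, plus strand: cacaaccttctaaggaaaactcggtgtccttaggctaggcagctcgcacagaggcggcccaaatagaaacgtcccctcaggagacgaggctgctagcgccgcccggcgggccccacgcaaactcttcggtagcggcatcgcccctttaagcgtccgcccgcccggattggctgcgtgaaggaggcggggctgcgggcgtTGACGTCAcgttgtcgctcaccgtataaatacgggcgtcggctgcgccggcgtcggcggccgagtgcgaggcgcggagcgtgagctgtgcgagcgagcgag

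Stromal identity was checked first. All 10 stromal markers (among them Pdgfra, Col1a1, Dcn and Pdpn) were detected in every library, with a summed level between 65014 and 84064 CPM in muscle cells and between 82443 and 102952 CPM in lymph node cells. CPM is a count scaled to the size of its library, here with TMM factors. Muscle library 4 stood apart: it had 415460 counts, against 1256276 and 1844874 in the other muscle libraries and between 1851940 and 2397134 in lymph node, and it held blood cell transcripts. All 10 T cell markers were detected in it, summing to 478 CPM against between 4.57 and 12.7 CPM in the other 5 libraries. The 8 B cell markers summed to 3102 CPM there, against 38.5 and 63.8 CPM in muscle libraries 2 and 3 and between 21.7 and 274 CPM in lymph node. The 3 erythroid markers summed to 567 CPM there and to at most 10.9 CPM elsewhere. The 10 myeloid markers summed to 148 CPM there and to at most 23.2 CPM elsewhere. Muscle fibre markers were highest in muscle libraries 2 and 3, while muscle library 4 lay near lymph node. The 8 summed to 64.4, 74.5 and 16.1 CPM in muscle libraries 2, 3 and 4. In lymph node they summed to between 10.3 and 15.0 CPM, with Mb at 0. Mural markers (6) summed to between 64.4 and 75.3 CPM in muscle and between 33.7 and 49.7 CPM in lymph node, and endothelial markers (8, Cldn5 at 0 throughout) to between 239 and 383 CPM in muscle and between 272 and 350.1 CPM in lymph node. Satellite cell markers (5, Myf5 at 0 throughout) reached at most 10.8 CPM and adipocyte markers (5, Retn at 0 throughout) at most 4.30 CPM in any library. The part of these cells in the results was not tested, and the main values are given with and without muscle library 4.

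Of the 7 genes, 3 (Hsd11b1, Sgk1 and Errfi1) were lower in muscle, 0 were higher and 4 were not called, where 4.32% of all 10823 tested genes were called, 2.86% lower and 1.46% higher (edgeR quasi-likelihood F test, Benjamini-Hochberg adjusted p under 0.05). With all libraries, 0 of the 7 were higher at an unadjusted p under 0.05 and 0 by DESeq2 or limma-voom. Without muscle library 4, 4 fell (Fkbp5 in addition) and 0 rose (2 at an unadjusted p under 0.05, Nr3c1 and Tsc22d3), against 12.4% of 11246 tested genes called, 7.58% lower and 4.79% higher. In libraries of sorted cells in bulk, fewer cells expressing a gene and less of its RNA per cell cannot be told apart. The 3 genes had no overlap between the tissues, and all 3 were lower, while 23.6% of all tested genes had no overlap, 13.7% lower and 9.93% higher. Without muscle library 4, 5 genes had no overlap, 4 lower and Nr3c1 higher in muscle, against 39.7% of all tested genes, 19.9% lower and 19.8% higher. Per kilobase of exon, so that genes can be compared, the muscle levels ran from Errfi1 (53.7 ± 10.7 CPM per kb) through Tsc22d3 (43.6 ± 18.5), Nr3c1 (36.7 ± 5.76), Hsd11b1 (19.7 ± 12.7), Sgk1 (17.5 ± 3.52) and Zbtb16 (15.5 ± 6.46) to Fkbp5 (5.29 ± 2.79; SD, n = 3). The first 3 overlapped with their neighbours in this order, as did Hsd11b1, Sgk1 and Zbtb16, while Nr3c1 stood above Hsd11b1, and Zbtb16 above Fkbp5, without overlap. Without muscle library 4, Tsc22d3 (52.0 CPM per kb) came before Errfi1 (50.9). Errfi1 then stood above Nr3c1 (40.0), and Hsd11b1 (27.1) above Sgk1 (15.6), without overlap (n = 2). In lymph node the order was Errfi1 (259 ± 20.8 CPM per kb), Hsd11b1 (79.9 ± 7.95), Sgk1 (38.1 ± 0.534), Tsc22d3 (32.8 ± 14.5), Nr3c1 (30.2 ± 2.26), Zbtb16 (14.2 ± 3.94) and Fkbp5 (7.72 ± 0.706), where Sgk1, Tsc22d3 and Nr3c1 overlapped with their neighbours. The exon length is that of all annotated exons of a gene joined, so levels of genes with rarely used exons come out low.

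**Figure D1:**
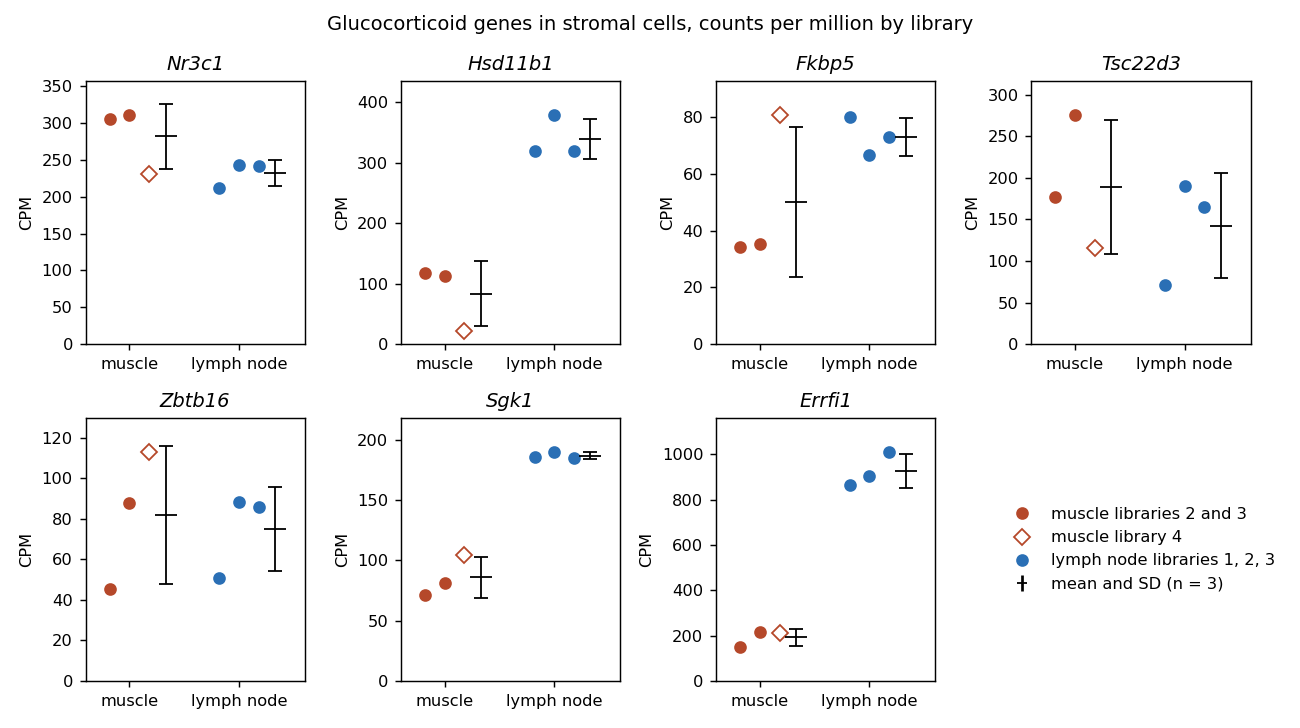
Level of each of the 7 genes in CPM (vertical axes, each from 0) in 3 muscle and 3 lymph node libraries, with the mean and SD of each tissue (n = 3) beside the points. Hsd11b1, Sgk1 and Errfi1 are below the lymph node range in all 3 muscle libraries, Fkbp5 is lower only in muscle libraries 2 and 3, and Tsc22d3 and Zbtb16 differ between libraries of the same tissue.

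The receptor was not called in either direction. Nr3c1 (chromosome 18, 39410545 to 39519421, GRCm38) measured 305, 310.4 and 231 CPM in muscle libraries 2, 3 and 4, against 212, 244 and 241 CPM in lymph node libraries 1, 2 and 3. Muscle libraries 2 and 3 lay above every lymph node library and muscle library 4 lay among them. Taken as muscle minus lymph node, its log2 fold change was 0.29 ± 0.19 (SE; adjusted p = 0.545 in edgeR), with a 95% interval from -0.13 to 0.71. Without muscle library 4 it was 0.40 ± 0.14 (adjusted p = 0.0761), with an interval from 0.11 to 0.69. Nr3c2, the mineralocorticoid receptor, which binds the same hormone, measured 16.5 ± 5.77 CPM in muscle cells and 19.4 ± 2.68 CPM in lymph node cells (SD, n = 3 each), with an adjusted p of 0.897.

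The activating enzyme was lower in muscle. Hsd11b1 (chromosome 1, 193221634 to 193264075) measured 117, 113 and 21.5 CPM in muscle cells, against 320.3, 378 and 319.6 CPM in lymph node cells. Every muscle library was below every lymph node library, and muscle library 4 was the lowest, with 8 counts (95% Poisson counting interval from 9.28 to 42.4 CPM). The log2 fold change was -1.92 ± 0.42 (adjusted p = 0.0331), a 3.77-fold lower level in muscle, and without muscle library 4 it was -1.57 ± 0.15 (adjusted p = 6.53e-06), 2.96-fold lower. The call was lost when any 1 library other than muscle library 4 was left out (adjusted p from 0.0763 to 0.197) and with total-count scaling (adjusted p = 0.0559), with the fold change between -1.82 and -2.20. H6pd, which supplies the cofactor NADPH to the enzyme, measured 97.1, 53.0 and 34.9 CPM in muscle cells, against 212, 154 and 122 CPM in lymph node cells. The tissues did not overlap, yet H6pd missed the threshold in edgeR with all libraries (-1.31 ± 0.35, adjusted p = 0.0777) and passed it without muscle library 4 (-1.09 ± 0.26, adjusted p = 0.0113). With all libraries it was called lower by DESeq2 (adjusted p = 0.0145) and limma-voom (adjusted p = 0.044). Hsd11b2, which inactivates the hormone, was low in each tissue, at 11.1 ± 9.14 CPM in muscle cells and 7.50 ± 2.44 CPM in lymph node cells, and muscle library 4 gave the highest value, 21.5 CPM.

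Of the other genes that handle steroids, Akr1c18, Srd5a1 and Por were lower in muscle. Of 9 tested genes of 11 listed for the ligand and its receptors, 4 fell, 0 rose and 5 were not called. Hsd11b1 and Nr3c1 belong to this list, and of the 7 other tested genes 3 fell (2.86% of all tested genes did), 0 rose and 4 were not called. Their median log2 fold change was -1.31, against 0.02 over all tested genes. Without muscle library 4, 4 of these 7 fell (7.58% of all tested genes did) and 0 rose, with a median of -1.09. Akr1c18 and Srd5a1 measured at most 0.768 and 4.75 CPM in muscle cells. They passed the count filter through lymph node and could only come out lower. Akr1c18, the mouse 20-alpha-hydroxysteroid dehydrogenase, known for inactivating progesterone, had 1 count in all muscle libraries together, against 202 counts in lymph node. The resulting ratio was 115 in favour of lymph node, with an exact 95% counting interval from 20.4 to 4560. The single count lay in muscle library 3, and the fitted log2 fold change of Akr1c18, -6.52 with all libraries, was -8.81 without that library and -5.63 without muscle library 2. Srd5a1, a steroid 5-alpha-reductase, measured 2.35 ± 2.37 CPM in muscle cells and 24.6 ± 7.04 CPM in lymph node cells (-2.93 ± 0.55, adjusted p = 0.0162). Por, the electron donor of microsomal cytochrome P450 enzymes, measured 48.1 ± 22.4 CPM in muscle cells and 135.8 ± 14.1 CPM in lymph node cells (-1.40 ± 0.30, adjusted p = 0.031). Srd5a1 and Por lost their call when muscle library 3 or any single lymph node library was dropped (adjusted p up to 0.146 and 0.175). The fold change of Srd5a1 was -3.79 without muscle library 2. At an unadjusted p under 0.05, 0 genes of the list were higher, and 0 by DESeq2 or limma-voom. The count for this list fell to 1 when muscle library 3 or any 1 lymph node library was left out.

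The receptor-associated Fkbp5 differed between tissues once muscle library 4 was set aside. Fkbp5 (chromosome 17, 28399094 to 28517527) measured 34.3, 35.3 and 80.6 CPM in muscle cells, against 79.9, 66.6 and 72.8 CPM in lymph node cells. Muscle libraries 2 and 3 were below all lymph node libraries, and muscle library 4, with 30 counts and a counting interval from 54.4 to 115 CPM, was the highest of all 6. With all libraries the log2 fold change was -0.68 ± 0.32 (adjusted p = 0.369), and without muscle library 4 it was -1.08 ± 0.19 (adjusted p = 0.00133), 2.11-fold lower in muscle. The blood cell transcripts of muscle library 4 moved with this value, and their part in it was not tested. Fkbp4, the related co-chaperone that helps carry the receptor to the nucleus, measured 149, 105 and 80.6 CPM in muscle cells, against 86.2, 118 and 106 CPM in lymph node cells (0.15 ± 0.25, adjusted p = 0.86). Of 21 tested chaperones and coregulators of the receptor, 3 fell (2.86% of all tested genes did), 0 rose and 18 were not called, and the median was 0.07. The 3 were the heat shock genes Dnajb1 (-3.55 ± 0.30, adjusted p = 4.45e-04), Hspa8 and Hsp90aa1, of which Hspa8 and Hsp90aa1 share 46.8% and 53.4% of their 25-base words with other genes and are uncertain. The count was 1 without muscle library 2 or 3 or lymph node library 2 or 3. At an unadjusted p under 0.05, 1 gene of this list was higher, and 0 were called higher by DESeq2 or limma-voom. The coactivators Ncoa1, Ncoa2, Ncoa3, Crebbp, Ep300, Med1 and Med14 were not called with all libraries by edgeR.

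**Figure D2:**
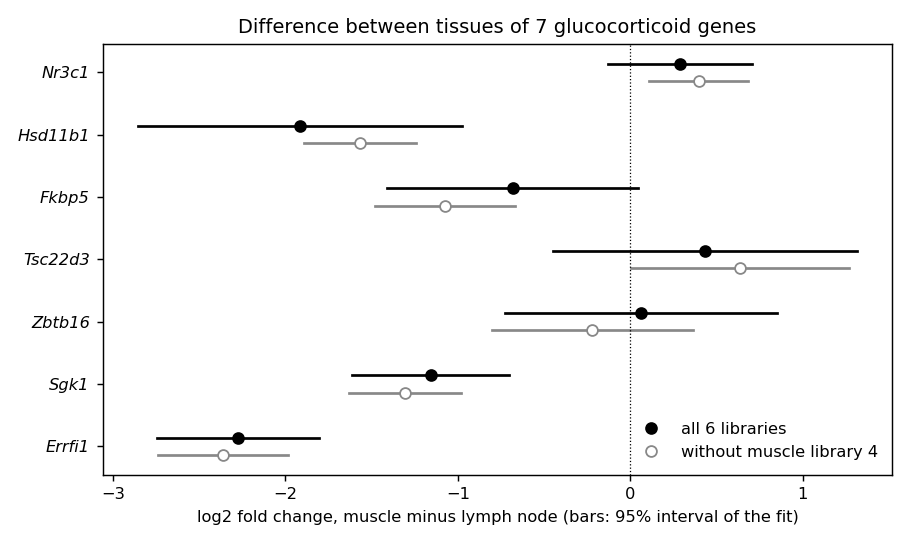
Log2 fold change of the 7 genes, muscle minus lymph node (horizontal axis, 0 is no difference), with all 6 libraries (filled) and without muscle library 4 (open). Bars are 95% intervals of the fit, and those of Hsd11b1, Sgk1 and Errfi1 stay below 0 either way, while that of Fkbp5 does so only without muscle library 4. Those of Nr3c1 and Tsc22d3 lie above 0 only without muscle library 4, where neither gene was called.

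Among the induced genes, Sgk1 and Errfi1 were lower in muscle. Sgk1 (chromosome 10, 21882184 to 21999903) measured 71.2, 81.5 and 105 CPM in muscle cells, against 186, 189.9 and 185 CPM in lymph node cells. The lymph node libraries were nearly equal, and every muscle library was below them. Its log2 fold change was -1.16 ± 0.20 (adjusted p = 0.0116), 2.23-fold lower in muscle, and -1.31 ± 0.15 without muscle library 4 (adjusted p = 3.82e-05). The call was lost when any 1 of the other 5 libraries was left out (adjusted p from 0.0645 to 0.092). Errfi1 (chromosome 4, 150853919 to 150868892) measured 148, 217 and 212 CPM in muscle cells, against 865, 906 and 1009 CPM in lymph node cells, the widest gap of the 7 in log2 fold change. The tissues were far apart, with a log2 fold change of -2.28 ± 0.21 (adjusted p = 5.5e-04), 4.85-fold lower in muscle, and the call held in all 16 alternatives. Egfr, the receptor that the Errfi1 protein inhibits, was lower in muscle as well, at 505 ± 74.1 CPM in muscle cells against 1145 ± 92.8 CPM in lymph node cells (-1.18 ± 0.18, adjusted p = 0.00731). It was the 1 gene called lower among 11 tested relatives and partners of the 7 genes (2.86% of all tested genes were), and 0 were higher. This call was lost without lymph node library 2 or 3 (adjusted p 0.0764 and 0.0609 in edgeR). The median of the list was 0.07, and -0.48 without muscle library 4. In this list 1 gene was higher at an unadjusted p under 0.05 and 0 by DESeq2 or limma-voom.

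Immediate early genes, which stress and tissue dissociation also induce, moved with these values. The 25 listed summed to between 2677 and 3330 CPM in muscle cells and between 19683 and 21512 CPM in lymph node cells. Of 23 tested, 16 fell (2.86% of all tested genes did), with 0 rising (0 at an unadjusted p under 0.05 and by DESeq2 or limma-voom) and a median of -2.66. Ier5, Nr4a2 and Nr4a3 measured at most 6.33, 4.22 and 8.06 CPM in muscle cells. They passed the count filter through lymph node and could only come out lower, so the filter bears on this count and median. The part of the immediate early genes in the differences of Hsd11b1, Sgk1 and Errfi1 was not tested. Their sum was similar in the libraries of 1 tissue, muscle library 4 included, but some single genes differed between libraries. Nr4a1 measured 140 CPM in muscle library 4 against 22.2 and 24.6 CPM in muscle libraries 2 and 3, and Socs3 ran from 642 to 1439 CPM in lymph node.

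Tsc22d3 and Zbtb16 were not called. Tsc22d3 (chromosome X, 140539528 to 140600659) measured 177, 275 and 116 CPM in muscle cells, against 71.4, 191 and 165 CPM in lymph node cells, and the tissues overlapped. Its log2 fold change was 0.43 ± 0.39 (adjusted p = 0.695 in edgeR), with a 95% interval from -0.45 to 1.31. Without muscle library 4 it was 0.64 ± 0.29 (adjusted p = 0.209 in edgeR), with an interval from 0.006 to 1.27. Zbtb16 (chromosome 9, 48654297 to 48836222) measured 45.4, 87.6 and 113 CPM in muscle cells, against 50.8, 88.1 and 85.6 CPM in lymph node cells, and overlapped as well. Its log2 fold change was 0.06 ± 0.35 (adjusted p = 0.968), with an interval from -0.73 to 0.85, and its sign turned to -0.22 without muscle library 4 and in 6 other alternatives.

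Both genes varied more between libraries of 1 tissue than most genes with a mean of at least 50 CPM. In lymph node the highest library exceeded the lowest 2.67-fold for Tsc22d3 and 1.73-fold for Zbtb16, against a median of 1.22-fold over the 3398 genes with a mean of at least 50 CPM, and 98.9% and 94.9% of those genes had a smaller ratio. Lymph node library 1 was the lowest for both. Between muscle libraries 2 and 3 the ratio was 1.56 for Tsc22d3 and 1.93 for Zbtb16, against a median of 1.14, with 95.2% and 98.9% of genes below, and library 2 was the lower for both. Counting error was smaller than these gaps: the 95% counting interval of Tsc22d3 ran from 59.4 to 85.0 CPM in lymph node library 1 and from 173 to 209 CPM in library 2, and that of Zbtb16 from 36.3 to 56.0 CPM in muscle library 2 and from 72.3 to 105 CPM in library 3. Against genes with a mean within 1.5-fold of their own in the same libraries, a comparison added after the data were seen, the share with a smaller ratio was 97.8% for Tsc22d3 and 98.9% for Zbtb16 in muscle and 99.5% for Tsc22d3 and 95.2% for Zbtb16 in lymph node. Errfi1 also differed between muscle libraries 2 and 3, with a ratio of 1.46 that 92.3% of genes with at least 50 CPM did not reach, but not in lymph node, where 35.3% had a smaller ratio. Sgk1 stood at the other end in lymph node, with a ratio smaller than that of all but 1.38% of those genes. Bcl6, a gene of the induced list picked out after its values were seen, was also lowest in lymph node library 1 (22.8 CPM, against 85.9 and 75.6 CPM in libraries 2 and 3), but muscle libraries 2 and 3 were alike (57.0 and 62.2 CPM). The induced list did not share a direction in lymph node library 1, since others of its genes, Cebpd and Klf9 among them, were highest there.

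**Figure D3:**
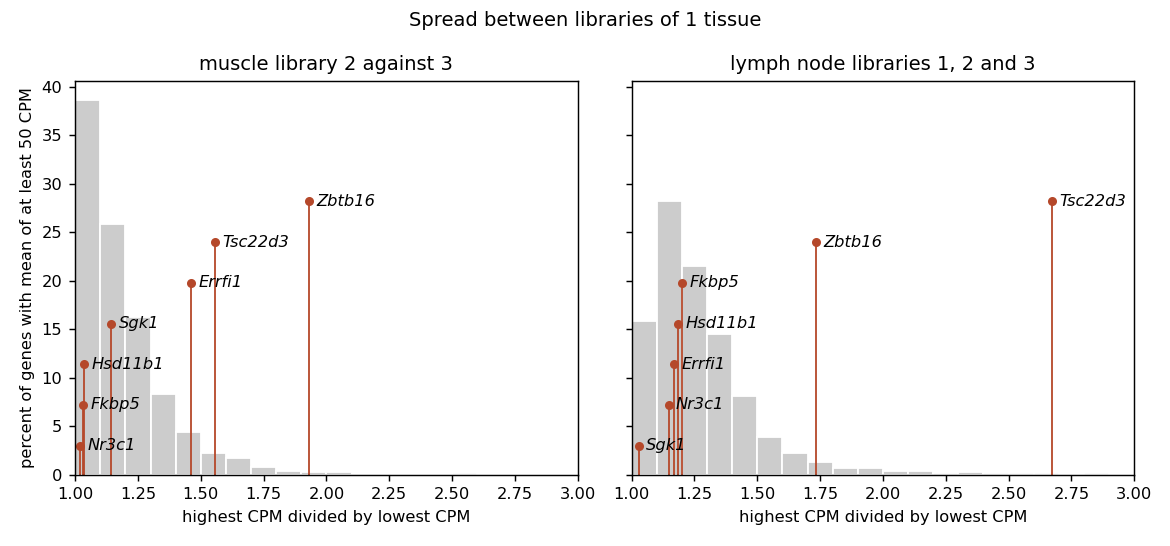
Ratio of the highest to the lowest library of 1 tissue (horizontal axis), for muscle libraries 2 and 3 (left) and lymph node libraries 1, 2 and 3 (right). Grey bars give the percent of the 3398 genes with a mean of at least 50 CPM, up to a ratio of 3, and red lines mark the 7 genes, with heights chosen for legibility. Tsc22d3 and Zbtb16 lie in the right tail of each panel, and Errfi1 (1.46) in that of the muscle panel.

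The wider set of genes known to be induced by glucocorticoids was lower in muscle in part. Of 34 tested genes of 39 listed, 11 fell (2.86% of all tested genes did), 0 rose (0 at an unadjusted p under 0.05 and by DESeq2 or limma-voom) and 23 were not called, with a median log2 fold change of -1.10. Klf15 and Fam107a measured at most 8.06 and 10.8 CPM in muscle cells, each in muscle library 4. They passed the count filter through lymph node and could hardly come out higher, so the filter bears on this count and median. Leaving out the 5 of the 7 genes that the list contains, 9 of 29 fell (31%), 0 rose, and the median was -1.26. Without muscle library 4, 19 of 36 fell and 1 rose, where 7.58% of all tested genes were lower and 4.79% higher. The 1 that rose was Cdkn1c, a cell cycle inhibitor (2.87 ± 0.42). Cdkn1c did not pass the count filter with all libraries, so it was not tested there. As with Hspa8 and Hsp90aa1, a part of its words (28%) is shared with other genes, and it is uncertain. The count of lower genes was 7 without muscle library 2 or lymph node library 1 or 3. The 5 others with the smallest p were Dusp1, Zfp36, Il1r2, Nfkbia and Angptl4. Dusp1 encodes a phosphatase that switches off MAP kinases and measured 537 ± 34.9 CPM in muscle cells against 2463 ± 341 CPM in lymph node cells (-2.20 ± 0.19, adjusted p = 4.46e-04). Zfp36, which destabilises inflammatory messengers, fell by 2.85 ± 0.24 on the log2 scale, and Nfkbia, an inhibitor of NF-kB, by 2.79 ± 0.30. Il1r2, a decoy receptor for interleukin-1, had a log2 fold change of -4.28 ± 0.44, and Angptl4, an inhibitor of lipoprotein lipase, one of -4.30 ± 0.61. Angptl4 measured 29.0, 2.31 and 34.9 CPM in muscle libraries 2, 3 and 4, against 300 to 497 CPM in lymph node. It passed the count filter through lymph node. Its fold change was -5.03 without muscle library 2 and -3.68 without muscle library 3. Dusp1, Zfp36 and Nfkbia are also induced by stress and inflammatory signals without hormone. Other well-known targets were not called: the clock gene Per1 measured 29.0, 59.9 and 78.0 CPM in muscle cells, against 53.7, 39.5 and 50.5 CPM in lymph node cells (0.12 ± 0.34, adjusted p = 0.923). The transcription factor Klf9 measured 91.3, 103 and 26.9 CPM in muscle cells, against 159, 137 and 106 CPM in lymph node cells (-0.77 ± 0.37, adjusted p = 0.378). Of 10 tested inflammatory genes of 18 listed that glucocorticoids are known to hold down, 8 fell (2.86% of all tested genes did) and 0 rose (0 at an unadjusted p under 0.05 and by DESeq2 or limma-voom). The median was -3.06, so genes of this list and of the induced list were both lower in muscle. Il6 and Cxcl10 measured at most 2.64 and 7.38 CPM in muscle cells. They passed the count filter through lymph node and could only come out lower, so the filter set part of this count and median. Il6, for example, had 5 counts in the muscle libraries together, and Ptgs2, the inducible prostaglandin synthase, measured 39.6, 44.6 and 24.2 CPM in muscle cells, against 350.04, 376 and 407 CPM in lymph node cells (-3.31 ± 0.23, adjusted p = 2.21e-04).

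**Figure D4:**
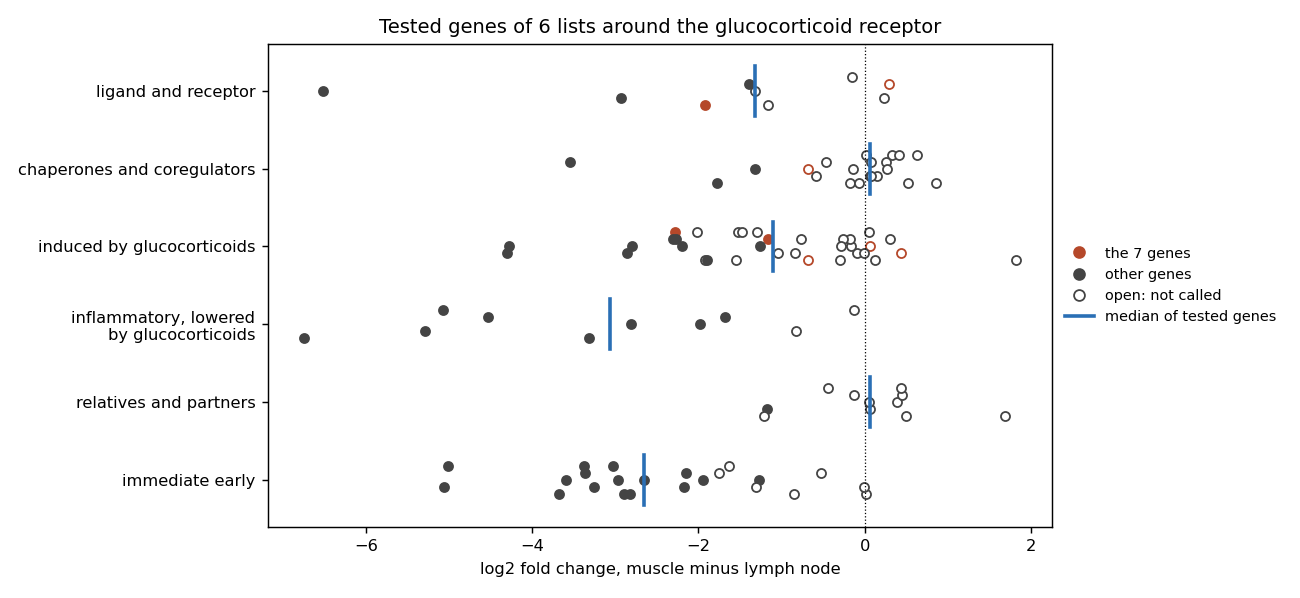
Log2 fold change, muscle minus lymph node (horizontal axis), of every tested gene of 6 lists around the glucocorticoid receptor, with the vertical bar at each list's median. Filled points passed the test and red points are the 7 genes. All filled points are below 0, and the medians of the chaperone and partner lists are near 0 with all libraries (-0.48 for the partner list without muscle library 4).

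The genes whose pattern over the libraries was most like each of the 7 were found by the root mean square difference of centred log2 CPM among 6714 genes. Over all 6 libraries the nearest genes were Sspn (0.05) and Bin1 (0.06) for Nr3c1, Gda (0.25) and Gpx3 (0.26) for Hsd11b1, and Trim25 (0.10) and Osr1 (0.12) for Fkbp5. They were Dlg4 (0.15) and Zfp709 (0.19) for Tsc22d3, and Kif16b (0.14) and Npat (0.15) for Zbtb16. For Sgk1 they were Lrrc17 (0.09) and Adam22 (0.10), and for Errfi1 Dusp1 and Sat1 (0.15 each). Over the 5 libraries without muscle library 4, Sspn (0.02), Dlg4 (0.16), Kif16b (0.12) and Sat1 (0.06) were again among the 2 nearest. The other nearest genes in the 5 libraries were Pacs2 (0.03) for Nr3c1, Alas1 (0.04) and Slc4a4 (0.06) for Hsd11b1, Ugdh (0.04) and Egfros (0.06) for Fkbp5, Meaf6 (0.14) for Tsc22d3, Aldh6a1 (0.12) for Zbtb16, Cldn12 (0.05) and C1s1 (0.05) for Sgk1, and Icam1 (0.11) for Errfi1. Likeness within the 7 depended on muscle library 4. Sgk1 and Fkbp5 differed by 0.36 over 6 libraries and by 0.16 over 5, and Sgk1 and Hsd11b1 by 1.12 over 6 and by 0.17 over 5. The farthest pair was Hsd11b1 and Zbtb16 over 6 libraries (1.64) and Errfi1 and Tsc22d3 over 5 (1.58).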

How the data were processed

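The authors deposited raw counts per gene symbol, 1 column per library. The submitters' processing notes list STAR 2.5.4, featureCounts and mm10, with no settings. Per the labels' protocols, polyadenylated RNA of 1000 sorted cells was copied from an oligo(dT) primer, amplified, tagmented and sequenced as paired reads of 25 bases, with no molecular identifiers described, so counting intervals cover counting error only. Annotation release, strand setting and handling of multiply aligned reads were not given in the sources used here. At most 3.52% of the 25-base words of the 7 genes occur in other genes, and no exon of theirs overlaps another gene's (GENCODE M21, GRCm38). Lymph node columns match sample titles. Muscle columns (2, 3, 4) do not match the muscle titles' numbers and were used as 3 replicates of the group.

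Tests used edgeR 4.0.16 in R 4.3.3 over all 10823 genes kept by filterByExpr: TMM scaling, quasi-likelihood F test on tissue, two-sided, Benjamini-Hochberg adjusted. Standard errors are the fold change over the square root of F. The procedure was tested on simulated data. Alternatives were DESeq2 1.42.0, limma-voom (limma 3.58.1) with and without library weights, other scalings (RLE, total count, upper quartile), a filter of 10 CPM in 3 or more libraries or none, summed muscle libraries 2 and 3, a replicate block and leaving out each library. The 7 genes and the gene lists were chosen with earlier results of these data known. Genes named are the 7, up to 5 called genes per list by smallest p, 6 genes given by name (H6pd, Nr3c2, Per1, Dusp1, Klf9, Fkbp4) and the 2 nearest in pattern. Of the chaperones and coregulators, 1 gene is not reported here. Hsd11b2, the coactivators, Cdkn1c, Klf15, Fam107a, Bcl6, Cebpd, Ier5, Nr4a1, Nr4a2, Nr4a3 and Socs3 were named after their values were seen.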

Additional observations from a re-analysis of the deposited data

How the results depend on the processing

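Muscle library 4 and the small number of libraries set most limits. Of the 7 genes, Errfi1 kept its call in all 16 alternatives, Nr3c1, Tsc22d3 and Zbtb16 were called in none, and no gene was called higher in any. Leaving out 1 library gave 1 to 4 of the 7 genes called lower, and between 28 and 539 genes called higher and 114 and 852 called lower over all genes. Without muscle library 4, Fkbp5 was called (-1.08). With 1 library left out, Hsd11b1 lay between -2.20 and -1.57, Sgk1 between -1.31 and -1.05, Fkbp5 between -1.08 and -0.47, and Zbtb16 between -0.22 and 0.37. With muscle libraries 2 and 3 summed, 55 genes were higher and 167 lower, 1 of the 7 was called, and Hsd11b1 (-2.16) and Sgk1 (-1.13) lost their call, with fewer libraries by construction. Total-count scaling moved the median of all genes to 0.10 and took the call of Hsd11b1 (-1.82). DESeq2 called 260 genes higher. Without a filter 419 were higher and 526 lower, and Zbtb16 was -0.14. limma-voom gave Zbtb16 -0.12. With library weights it called 552 higher and 814 lower and Fkbp5 (-0.999), with Zbtb16 at -0.35. Where a cause is not named, the cause was not tested.

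With the column number as a replicate block, which leaves 1 residual degree of freedom, 627 genes were higher and 903 lower, Fkbp5 was called (-0.996) and Zbtb16 was -0.45. The numbers pair the libraries only by name: deviations of same-numbered libraries correlated at -0.03 and 0.02.

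For the lists, leaving out 1 library gave 1 to 5 lower ligand and receptor genes, 1 to 4 lower and 0 to 1 higher chaperones and coregulators, 7 to 19 lower and 0 to 1 higher induced genes, and 0 to 1 lower partners. Ligand and receptor genes lower were 2 with total-count scaling and 1 with summed libraries. Summing gave 1 lower chaperone or coregulator. Library weights gave 17 lower induced genes and 1 higher gene among chaperones and coregulators. The block gave 18 lower induced genes, 5 lower and 1 higher chaperones and coregulators, and 2 lower and 1 higher partners. Without a filter, 1 induced, 1 inflammatory and 1 partner gene were higher.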
